A study of Mus musculus with 19 samples.

Results

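The enzymes and helper proteins that process and crosslink fibrillar collagen were followed in single cells of the injury site. The members were Serpinh1, Plod1, Plod2, Plod3, Pcolce, Bmp1, Lox, Loxl1, Loxl2 and Loxl3, which are 10 of the 27998 genes in the count tables. They were matched by gene symbol, and each symbol was present once. Their levels were read in 2 classes of cells, the stromal-like and the tenocyte-like cells, in all 19 libraries. In this model, heterotopic ossification follows a dorsal scald burn and transection of the Achilles tendon in mice (burn/tenotomy). Day 0, day 7 and day 21 after the injury each had 4 libraries, and day 3 had 3. A further 4 libraries came from mice given p7N3, a CD47 activating peptide, by intraperitoneal injection at 10 mg/kg a day for 3 days before and 3 days after the injury. The labels give no harvest day for p7N3 replicate 4 and name no vehicle for the day 7 libraries. The labels give a burn of 30% of the body surface for 18 s at 60 °C. This burn is part of the labels of day 0 too, whereas the methods call day 0 uninjured. C57 and LysmCre/Tgfb1fx/fx mice are named for the series as a whole, and neither genotype is assigned to a library. LysmCre acts in myeloid cells. All groups shared the collagenase and dispase digest, so cells that did not leave the matrix were not sampled.

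Fibrillar collagen is made as procollagen, which is modified before and after it leaves the cell. Inside the endoplasmic reticulum, lysyl hydroxylases (the Plod genes) hydroxylate lysines, and HSP47, the product of Serpinh1, binds and steadies the folded triple helix. Outside the cell, the proteinase of Bmp1 removes the C-terminal propeptide, a step enhanced by the product of Pcolce. Lysyl oxidases (Lox and the Loxl genes) then oxidise lysines and hydroxylysines to aldehydes from which the crosslinks between collagen molecules form. PLOD2 hydroxylates the telopeptide lysines, and the crosslinks built on hydroxylysine are typical of bone, cartilage and scar, whereas PLOD1 and PLOD3 act mainly on the helix. Tendon and bone are tissues with a high demand for these steps.

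Promoter sequence was read from the RefSeq table (GRCm38.p6) for 4 of the 10 members, Plod1, Plod3, Serpinh1 and Pcolce. The 250 bases before the start of Plod3 and Serpinh1, whose levels rose at day 3 and day 7 below, are shown beside those of Plod1, whose level did not pass the test at either day. They are written 5′ to 3′ on the strand of the gene. Capitals mark matches, on either strand, to ACGTG (the core of the hypoxia response element), GGGCGG (the GC box) or GAANNTTC (a pair of heat shock element units), and no matches overlapped.
Plod3: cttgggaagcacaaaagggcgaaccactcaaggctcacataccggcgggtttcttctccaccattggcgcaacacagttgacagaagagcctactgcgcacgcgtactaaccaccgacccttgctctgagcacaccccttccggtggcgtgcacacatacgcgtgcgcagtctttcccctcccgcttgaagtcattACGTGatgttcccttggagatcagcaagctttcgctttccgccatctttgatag
Serpinh1: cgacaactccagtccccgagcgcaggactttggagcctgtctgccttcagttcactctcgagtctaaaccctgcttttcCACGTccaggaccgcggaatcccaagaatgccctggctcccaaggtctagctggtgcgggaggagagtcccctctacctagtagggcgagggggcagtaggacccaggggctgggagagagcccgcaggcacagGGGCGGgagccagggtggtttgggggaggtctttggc
Plod1: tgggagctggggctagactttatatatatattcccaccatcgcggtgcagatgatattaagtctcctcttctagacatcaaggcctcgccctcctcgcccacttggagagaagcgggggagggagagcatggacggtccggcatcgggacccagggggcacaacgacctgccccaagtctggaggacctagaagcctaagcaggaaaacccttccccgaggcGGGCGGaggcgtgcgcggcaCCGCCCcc
These windows are chr5:136986769-136987018 (plus strand) for Plod3, chr7:99353240-99353489 (minus strand) for Serpinh1 and chr4:147936777-147937026 (minus strand) for Plod1. The Plod3 window held 1 match to ACGTG and the Serpinh1 window held 1, against 0 in the Plod1 window. GCGTG, which was not counted, can be read in the Plod1 and Plod3 windows. The Plod1 window held 2 matches to GGGCGG, the Serpinh1 window 1 and the Plod3 window 0. GAANNTTC was in none of the 3 windows. Over all 32851 promoter windows of the table at the same length, 16.6% held ACGTG, 32.7% held GGGCGG and 6.69% held GAANNTTC. The GC content was 55.6% for Plod3, 63.6% for Serpinh1 and 61.6% for Plod1. The Pcolce window, which is not shown, held 0 matches to ACGTG, 1 to GGGCGG and 0 to GAANNTTC, with 58.8% GC.

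Depth differed between the groups. After cells with fewer than 500 genes or over 25% mitochondrial UMIs were left out, 39541 cells remained. A UMI is a molecular tag that counts each captured transcript once. Summed over its kept cells, a day 0 library had between 3019467 and 5383855 UMIs, and a library of any other group between 11064153 and 39870492. Stromal-like cells numbered 1146 at day 0, 815 at day 3, 4529 at day 7, 1704 at day 21 and 3696 with p7N3. Tenocyte-like cells numbered 52, 5, 1293, 1078 and 517, so that day 3 could not be read in them and each day 0 library held only 10 to 20. All 17 stromal markers and all 8 tenocyte markers of the fixed lists had UMIs in the sums of their own class. The same lists gave the classes their names, so this presence is not a check of the names. All 8 tenocyte markers also had UMIs in the stromal-like sums. UMIs were summed per library and class and are given as CPM, counts scaled to a common total by the UMIs of that sum. Fold changes are log2 values from edgeR's quasi-likelihood test with Benjamini-Hochberg adjustment over all genes tested, ± SE, and an adjusted p under 0.05 was the threshold. All 10 members passed the filter on low counts in every comparison of the whole classes, but not in every single cluster. The labels do not say whether the replicates came from separate mice, so these p-values measure only the spread between these libraries. The comparisons of days 3, 7 and 21 with day 0 share the 4 day 0 libraries. Replicate 4 of day 0, day 7, day 21 and p7N3 was added to the series later than the others, and day 3 has no replicate 4. With replicates 1 to 3 only, the number of members past the threshold stayed within 1.5 times, except between the classes at day 7, where it was 3 in place of 6. Here and below, counts of members under other settings are given without the share of all genes called. Such counts do not separate lost member changes from fewer calls in all.

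The stromal-like class was made of different clusters at different times, found without the members or their pathway genes among the variable genes. At day 0, 90.0% of its cells were in a cluster led by Myoc, Gsn and Inmt. At day 3, 89.8% were in a cluster led by Prg4, Cxcl14 and Aldh1a2. At day 7 the largest were led by Sfrp4, Eln and Clec3b (33.3%), by Crabp1, Lrrc15 and Prss35 (23.1%), by Gzme, Sfrp1 and Chl1 (18.7%) and by the cell cycle genes Cdc20, Ube2c and Birc5 (13.6%). At day 21 the cluster led by Sfrp4 held 65.7% and the one led by Myoc 18.8%. Markers of immune cells also moved with the groups. The summed CPM of 12 monocyte/macrophage markers in the stromal-like sums lay between 140 and 213 in the day 0 libraries, was between 1616 and 1778 for day 3, and was between 519 and 802 for day 7 and between 246 and 351 for day 21, with all 12 detected in each group. The 6 granulocyte markers summed to between 4.37 and 20.8 CPM for day 0, 1421 and 2409 CPM for day 3, and 120 and 201 CPM for day 7. With cells holding a UMI of the leukocyte gene Ptprc left out, 6 members were higher and 2 lower at day 3 against day 0, as with them. The share of all genes called without those cells is not given. The part of the remaining immune RNA in the results was not tested.

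**Figure D1:**
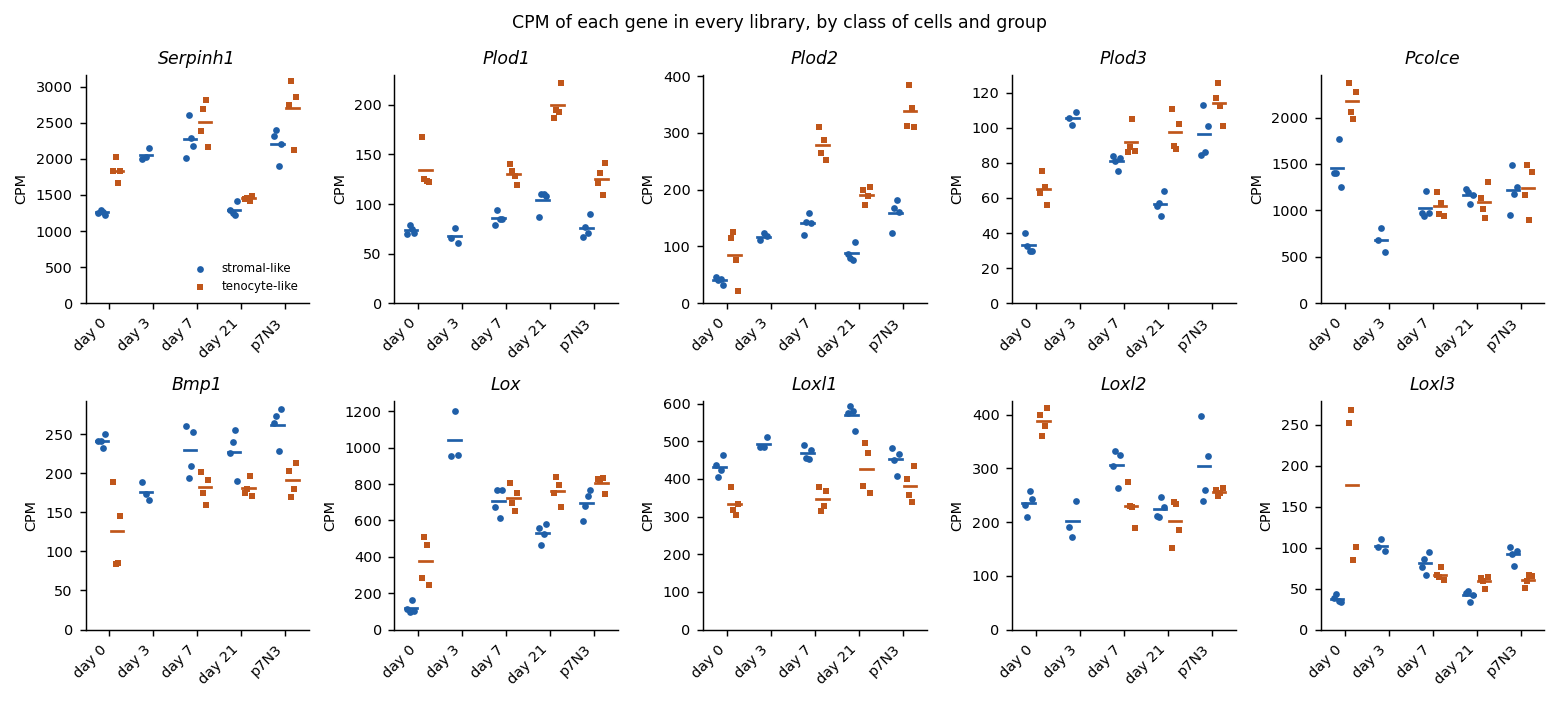
CPM of each gene (vertical axis) in the stromal-like (blue circles) and tenocyte-like (orange squares) sum of every library, by group, with the group mean as a line. Lox, Plod2 and Plod3 of every injured group stand above day 0 in stromal-like cells, while Pcolce of day 3 stands below it and the p7N3 points lie among those of day 7 for most genes.

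Serpinh1 (chromosome 7, 99345376-99353239, GRCm38), the collagen chaperone, was at 1255, 1288, 1264 and 1225 CPM in the stromal-like cells of the 4 day 0 libraries. It was at 1995, 2030 and 2145 CPM at day 3 and at 2017, 2603, 2289 and 2175 CPM at day 7. At day 21 it was back at 1290, 1249, 1223 and 1417 CPM. The ranges of day 3 and day 7 lay above day 0 without overlap, and those of day 21 and day 0 overlapped. It rose by 0.80 ± 0.08 at day 3 (adjusted p = 1.3e-06) and by 0.87 ± 0.11 at day 7 (adjusted p = 1.39e-05), and fell by 0.78 ± 0.10 from day 7 to day 21 (adjusted p = 0.000585). At day 21 against day 0 the difference was 0.08 ± 0.08 (adjusted p = 0.486).

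Plod2 (chromosome 9, 92542223-92608428), the telopeptide lysyl hydroxylase, was at 45.4, 41.6, 42.1 and 31.5 CPM at day 0. It stood at 111, 124 and 118 CPM at day 3, at 120, 143, 158 and 142 CPM at day 7, and at 86.7, 80.3, 75.4 and 108 CPM at day 21. Every library after injury was above every day 0 library. The changes against day 0 were 1.62 ± 0.12 (adjusted p = 4.72e-08), 1.81 ± 0.13 (adjusted p = 1.76e-07) and 1.16 ± 0.14 (adjusted p = 5.5e-05) at days 3, 7 and 21. From day 7 to day 21 it fell by 0.64 ± 0.13 (adjusted p = 0.00548).

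Plod3 (chromosome 5, 136987019-136996648), which besides lysines of the helix also modifies sugars on hydroxylysine, was at 40.2, 32.5, 30.0 and 30.1 CPM at day 0. At day 3 it reached 105, 102 and 109 CPM, its highest group. At day 7 it was at 83.8, 80.9, 75.7 and 83.1 CPM and at day 21 at 55.4, 57.1, 49.4 and 64.2 CPM. The 4 groups did not overlap, with day 3 above day 7, day 7 above day 21 and day 21 above day 0. Plod3 rose by 1.73 ± 0.12 at day 3 (adjusted p = 2.49e-08), and was still 0.79 ± 0.13 above day 0 at day 21 (adjusted p = 0.000387).

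Plod1 (chromosome 4, 147909753-147936767), the remaining lysyl hydroxylase, had another course. Its range was 69.4 to 79.2 CPM at day 0, 61.0 to 76.0 CPM at day 3, 79.0 to 94.5 CPM at day 7 and 87.2 to 110 CPM at day 21. The day 3 and day 0 ranges overlapped, with a difference of -0.02 (95% interval -0.25 to 0.21). At day 7 the difference of 0.25 ± 0.10 missed the threshold (adjusted p = 0.0526). At day 21 it was higher by 0.53 ± 0.11 (adjusted p = 0.00185), but not when each group was clustered alone.

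The procollagen cleavage members were lower or did not pass the test. Pcolce (chromosome 5, 137605103-137613784), the enhancer of the C-proteinase, was at 1403, 1404, 1768 and 1246 CPM at day 0 and at 680, 805 and 557 CPM at day 3, with no overlap. It was at 975, 941, 1208 and 975 CPM at day 7, and at 1231, 1203, 1069 and 1168 CPM at day 21. Pcolce fell by 1.01 ± 0.14 at day 3 (adjusted p = 2.65e-05) and had a log2 fold change of -0.49 ± 0.13 at day 7 (adjusted p = 0.00654). At day 21 the difference of -0.28 ± 0.11 missed the threshold (adjusted p = 0.0563).

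Bmp1 (chromosome 14, 70474558-70520234), the C-proteinase itself, ranged from 232 to 250 CPM at day 0 and from 166 to 189 CPM at day 3. The 3 day 3 libraries were all below the 4 of day 0, and the log2 fold change was -0.37 ± 0.09 (adjusted p = 0.00288). Without the filter on low counts this call was lost (adjusted p = 0.0587). The ranges of day 7 (194 to 260 CPM) and day 21 (189 to 255 CPM) overlapped day 0. The differences there were -0.06 (95% interval -0.30 to 0.19) and -0.05 (95% interval -0.28 to 0.17).

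Lox (chromosome 18, 52516067-52529867), the founding lysyl oxidase, had the largest log2 fold change of the 10 members in stromal-like cells at days 3, 7 and 21 against day 0. It was at 112, 94.8, 164 and 99.9 CPM at day 0 and at 957, 1203 and 962 CPM at day 3. At day 7 it was at 677, 770, 615 and 765 CPM and at day 21 at 560, 466, 527 and 581 CPM. Day 3 was the highest, day 7 lay below it and day 21 below day 7, and no neighbouring groups overlapped. The log2 fold changes against day 0 were 3.21 ± 0.17 (adjusted p = 2.7e-09), 2.58 ± 0.17 (adjusted p = 7.4e-08) and 2.19 ± 0.16 (adjusted p = 1.17e-06) at days 3, 7 and 21. It fell by 0.64 ± 0.12 from day 3 to day 7 (adjusted p = 0.00254) and by 0.37 ± 0.11 from day 7 to day 21 (adjusted p = 0.024). The last of these calls was lost when day 7 replicate 2 or 4, or day 21 replicate 2 or 3, was left out, with an adjusted p of 0.0576 to 0.0611, and the log2 fold change was -0.08 with tenocyte-like and chondrocyte-like cells added.

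Loxl3 (chromosome 6, 83034173-83052562), a family member with scavenger receptor domains, was at 38.3, 42.9, 34.4 and 33.8 CPM at day 0. It was at 101, 111 and 95.9 CPM at day 3 and at 75.8, 85.7, 67.0 and 95.04 CPM at day 7. By day 21 it was at 44.2, 47.1, 34.0 and 41.8 CPM, which overlapped day 0. It rose by 1.56 ± 0.11 at day 3 (adjusted p = 3.96e-08) and by 1.15 ± 0.13 at day 7 (adjusted p = 9.93e-06), and fell by 0.92 ± 0.13 from day 7 to day 21 (adjusted p = 0.000877).

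Loxl2 (chromosome 14, 69609068-69695834), which also has scavenger receptor domains, peaked at day 7. Its ranges were 209 to 257 CPM at day 0, 173 to 240 CPM at day 3, 263 to 333 CPM at day 7 and 210 to 246 CPM at day 21. It was 0.39 ± 0.12 higher at day 7 than at day 0 (adjusted p = 0.0115), a call that was lost with at most 10% mitochondrial UMIs. Loxl1 (chromosome 9, 58287738-58313186), known for its part in elastic fibres, ranged from 405 to 464 CPM at day 0 and from 527 to 593 CPM at day 21. Loxl1 was higher by 0.43 ± 0.09 at day 21 (adjusted p = 0.00235). Its rise of 0.27 ± 0.09 at day 3 (adjusted p = 0.0159) was lost with total UMI scaling and without day 3 replicate 3 (adjusted p = 0.0525).

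In counts, 6 of the 10 members were higher and 2 lower at day 3 against day 0, where 66.2% of all genes tested were called, 33.3% higher and 32.9% lower. At day 7 against day 0, 6 were higher and 1 was lower, against 53.6% of all genes in either direction, 27.7% higher and 25.8% lower. At day 21 against day 0, 5 were higher and 0 lower, against 34.2% of all genes, 17.2% higher and 17.0% lower. The median log2 fold change of the members was 0.54, 0.63 and 0.32 at the 3 times, beside 0.00, 0.02 and -0.02 over all genes tested. Between day 3 and day 7, 2 members were higher at day 7 (Loxl2 and Pcolce) and 3 lower (Lox, Plod3 and Loxl3), where 41.1% of genes were called, 20.5% higher and 20.6% lower. With cells holding a Ptprc UMI left out, 0 were higher and 3 lower in that comparison, and without day 3 replicate 1 only 2 members passed in all. Between day 7 and day 21, 2 members were higher (Loxl1 and Plod1) and 6 lower, where 34.1% of genes were called, 17.3% higher and 16.8% lower. The rise of Plod1 between these days, 0.30 ± 0.10 (adjusted p = 0.0404), was lost without day 7 replicate 1, 3 or 4 or day 21 replicate 2, 3 or 4.

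**Figure D2:**
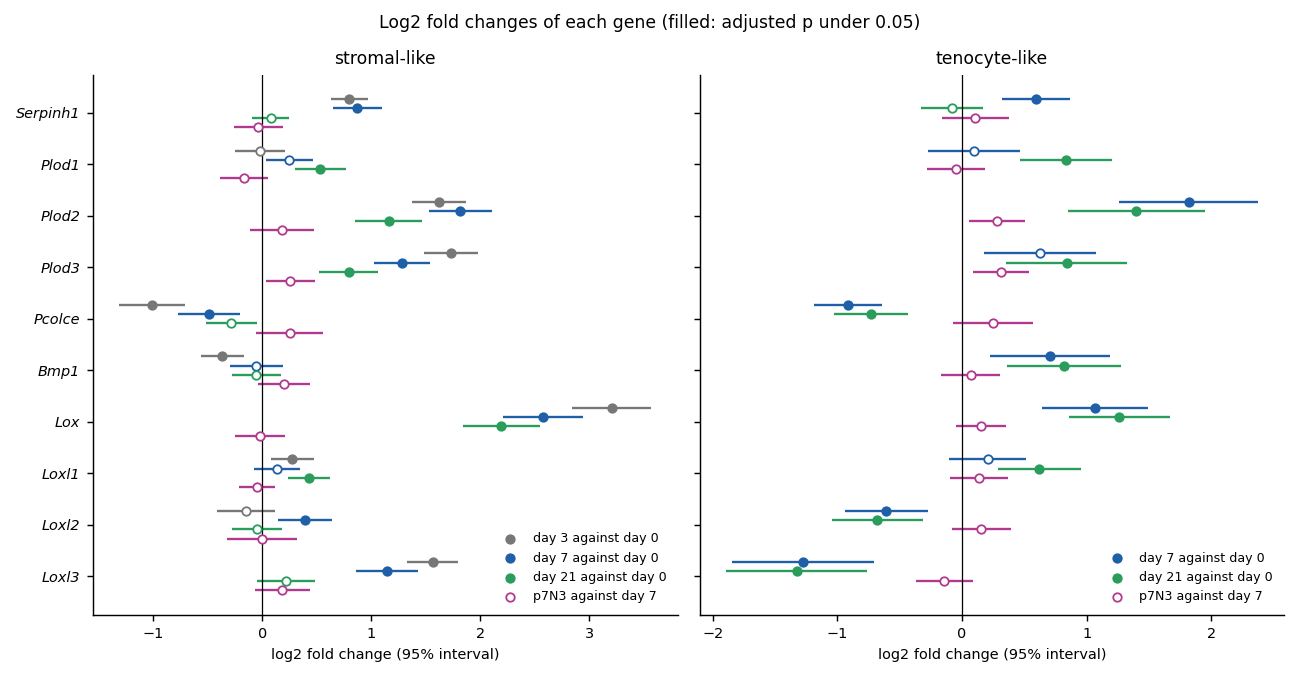
Log2 fold change of each gene (horizontal axis) with its 95% interval, in stromal-like (left) and tenocyte-like (right) cells, coloured by comparison, with filled points where the adjusted p was under 0.05. Lox had the highest values in stromal-like cells (3.21, 2.58 and 2.19), Loxl3 lay on opposite sides of 0 in the 2 classes at day 7, and no p7N3 point is filled.

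Since the clusters changed with time, the members were also compared within single clusters, a step chosen after the data had been seen. The cluster led by Has1, Gm12840 and C3 held 107 cells at day 0, 331 at day 7 and 77 at day 21. No change within that cluster was computed, so it is not covered here. Only the cluster led by Myoc, Gsn and Inmt had at least 10 cells in 4 libraries of each of day 0, day 7 and day 21. Within it, Lox was at 122 ± 30.5 CPM at day 0 (SD, n = 4), 174 ± 50.9 CPM at day 7 and 129 ± 30.3 CPM at day 21. The change of Lox at day 7 was 0.43 ± 0.23 (adjusted p = 0.258), beside 2.58 in the whole class. Plod2 differed by 0.05 ± 0.28 (95% interval -0.54 to 0.63), Plod3 by 0.20 ± 0.27 and Serpinh1 by 0.25 ± 0.14, and none of these passed the test. Pcolce differed by -0.02 ± 0.23 (adjusted p = 0.973), Loxl2 by 0.13 ± 0.16 (adjusted p = 0.69) and Loxl3 by -0.15 ± 0.25 (adjusted p = 0.784). These also did not pass within the cluster, though each had passed in the whole class. Loxl1 and Bmp1 rose within this cluster, by 0.73 ± 0.16 (adjusted p = 0.00512) and 0.84 ± 0.13 (adjusted p = 0.000476) at day 7 and by 0.62 ± 0.10 (adjusted p = 0.00138) and 0.42 ± 0.11 (adjusted p = 0.0325) at day 21. In the whole class Bmp1 had differed by -0.06 and -0.05. This cluster held 131 of 4529 stromal-like cells at day 7. Day 3 and day 0 shared no cluster with enough cells, so that time and cluster cannot be told apart for the day 3 values. The clusters were formed from expression in all groups together, so cells whose expression changed could fall in another cluster. Comparisons within a cluster, here and below, thus cover only cells that stayed alike. They do not fully tell time and cluster apart at day 7 or day 21 either.

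Across the day 7 clusters, the levels of the members differed. Lox was at 830 ± 45.6 CPM in the cluster of cell cycle genes (SD, n = 4), at 761 ± 77.3 CPM in the one led by Crabp1, at 761 ± 125 CPM in the one led by Gzme, at 547 ± 101 CPM in the one led by Sfrp4, at 449 ± 112 CPM in the one led by Has1, Gm12840 and C3, and at 174 ± 50.9 CPM in the one led by Myoc. Serpinh1 and Loxl2 were highest in the cluster led by Crabp1, at 3024 ± 388 and 459 ± 25.1 CPM, and Loxl2 stood at 157 ± 30.2 CPM in the one led by Gzme. Loxl1 and Bmp1 had the other order, with 661 ± 112 and 390 ± 6.78 CPM in the cluster led by Myoc and 427 ± 40.6 and 177 ± 38.1 CPM in the cluster of cell cycle genes. Within the cluster led by Sfrp4, from day 7 to day 21, Serpinh1 fell by 0.46 ± 0.10 (adjusted p = 0.00695) and Plod2 by 0.39 ± 0.12 (adjusted p = 0.0414), while Lox differed by 0.06 (adjusted p = 0.813).

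**Figure D3:**
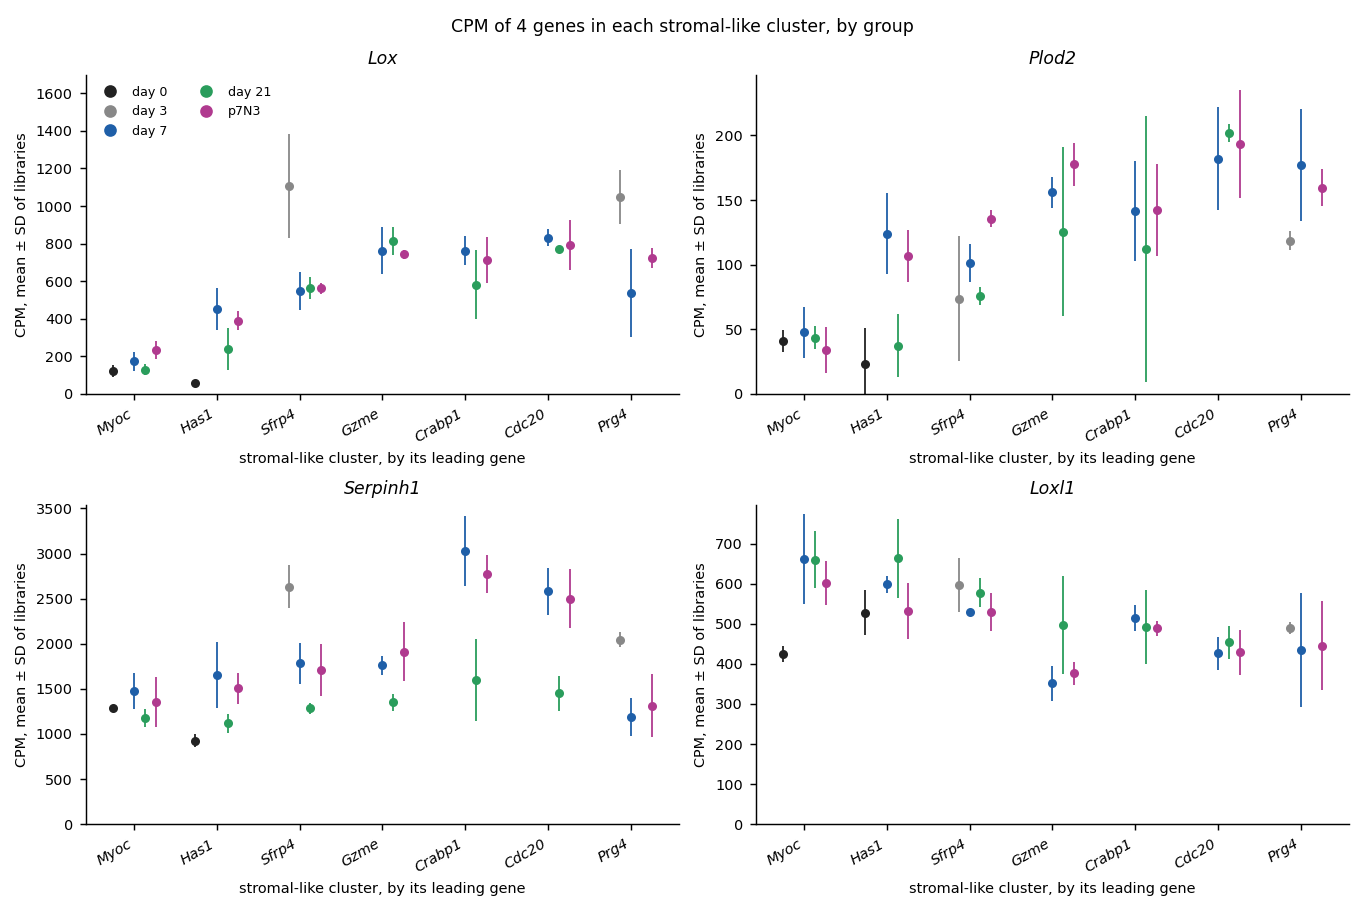
Mean CPM ± SD over libraries of Lox, Plod2, Serpinh1 and Loxl1 (vertical axes) in each stromal-like cluster, named by its leading gene (horizontal axis) and coloured by group. Clusters with at least 10 cells in at least 2 libraries of a group are shown. In the cluster led by Myoc, Lox lies between 122 and 234 CPM in the groups shown, below the other clusters of day 7. Day 3 has no point in this cluster. Loxl1 in it is at 425 CPM at day 0 and 661 CPM at day 7.

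Shares within a gene family do not depend on the scaling between libraries. Among the UMIs of Plod1, Plod2 and Plod3 in stromal-like cells, Plod2 made up 27.2% ± 2.41 at day 0 (SD, n = 4), 40.4% ± 1.02 at day 3 (n = 3), 45.7% ± 3.01 at day 7 (n = 4) and 35.3% ± 3.44 at day 21 (n = 4). Plod1 was the most abundant of the 3 at day 0, with 50.2% ± 3.74, and was at 27.9% ± 1.29 at day 7. Among Lox, Loxl1, Loxl2, Loxl3 and Loxl4, Lox rose from 14.2% ± 3.04 at day 0 to 56.3% ± 4.07 at day 3, and was at 45.1% ± 1.52 at day 7 and 38.9% ± 2.93 at day 21. Loxl1 was the first of the family at day 0, with 52.5% ± 3.16, and stood at 26.8% ± 2.03 at day 3 and 41.6% ± 2.77 at day 21. The Plod2 and Lox shares of day 7 and of day 21 were higher than those of day 0 in 4 of 4 libraries, each with an exact two-sided permutation p of 0.0286, the smallest that 4 against 4 libraries allow, and 0.0429 after adjustment over the 6 shares tested. The shares of day 3 are given as a description and were not tested. Within the cluster led by Myoc alone, the Plod2 share differed by -0.24 percentage points and the Lox share by 1.08 at day 7 against day 0.

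**Figure D4:**
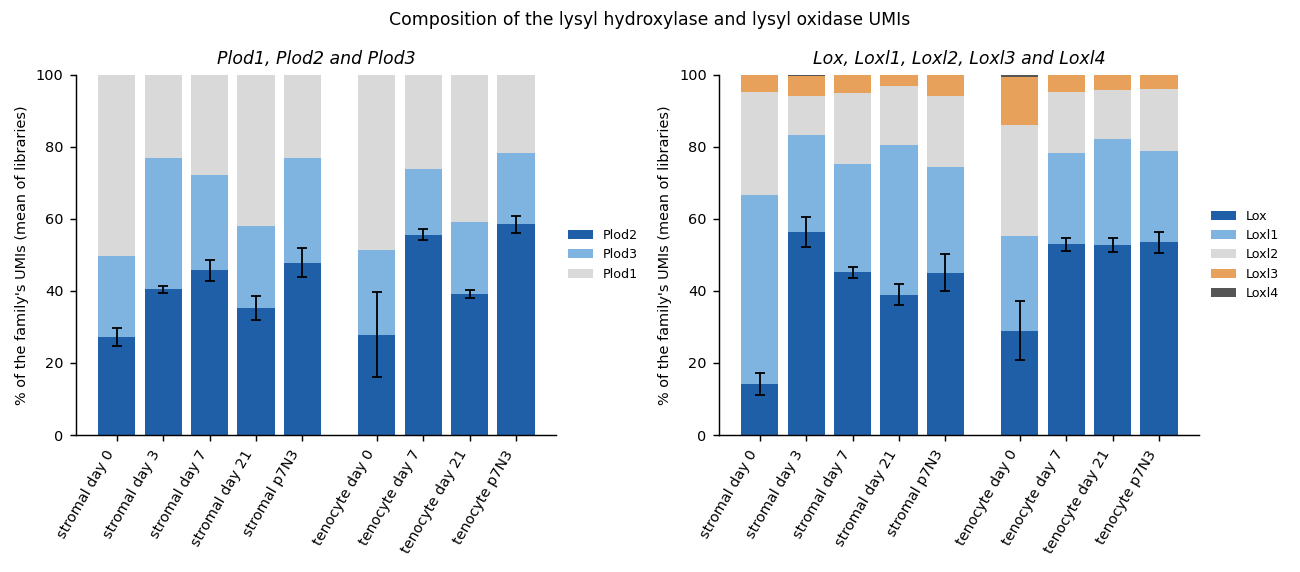
Share of each gene in its family's UMIs (vertical axis, mean of libraries, in %) for the lysyl hydroxylases (left) and lysyl oxidases (right), by class and group. The error bars are the SD of Plod2 and of Lox, which reach 45.7% and 45.1% at day 7 in stromal-like cells from 27.2% and 14.2% at day 0.

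The fraction of single cells with a transcript was compared after each cell had been thinned to 1500 UMIs, since the median stromal-like cell held 5174 UMIs at day 0 and 34882 at day 3. Lox was found in 13.0% ± 2.69 of stromal-like cells at day 0 (28.2% unthinned), 68.7% ± 3.06 at day 3 (99.02% unthinned), 55.2% ± 4.61 at day 7 (91.7% unthinned) and 39.6% ± 5.77 at day 21 (81.5% unthinned). In T/NK lymphocyte-like cells, which should lack it, Lox was found in 0% of 40 thinned cells at day 0, which allows a share of up to 7.5%, and in 2.90% ± 0.46 at day 7, with median depths of 2614 and 4204 UMIs. Plod2 was found in 6.52% ± 1.83 of thinned stromal-like cells at day 0 and 17.6% ± 2.07 at day 3. In the 40 thinned T/NK lymphocyte-like cells of day 0 its mean share over libraries was 2.78%. So few cells give only a rough background, and none is given for day 3. Serpinh1 was found in 78.9% ± 2.56 at day 0 and 92.2% ± 1.35 at day 3. Of the day 0 stromal-like cells, 66 were too shallow to be thinned and were left out.

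In tenocyte-like cells, Lox, Plod2 and Serpinh1 were higher at day 7 and Loxl3, Pcolce and Loxl2 lower. The day 0 sums rested on few UMIs, down to 2 for Plod2 in a library. Markers moved with the same comparison. The 8 tenocyte markers, all detected, summed to between 20340 and 27918 CPM in the day 0 libraries and between 3295 and 4593 CPM in those of day 7. The 6 skeletal muscle markers, of which 5 were detected in each group and Pax7 was at 0, summed to between 663 and 1728 CPM for day 0 and between 7.26 and 57.9 CPM for day 7. The 6 granulocyte markers summed to between 0 and 21.0 CPM for day 0, with Retnlg, Csf3r, Cxcr2 and Mmp9 at 0, and to between 94.2 and 317 CPM for day 7, with all 6 detected. Of 10 chondrocyte markers, 8 were in the count tables. These summed to between 134 and 252 CPM for day 0, with Col9a1 and Matn1 at 0, and between 422 and 775 CPM for day 7, with Matn1 at 0. The part of all these markers in the results was not tested. Lox was at 283, 510, 464 and 245 CPM at day 0 and at 804, 694, 650 and 753 CPM at day 7, with no overlap. It rose by 1.07 ± 0.20 (adjusted p = 0.00103). Plod2 was at 115, 125, 75.7 and 22.3 CPM at day 0 and at 310, 264, 288 and 252 CPM at day 7, again without overlap, and rose by 1.82 ± 0.26 (adjusted p = 0.000111). Serpinh1 rose by 0.60 ± 0.13 (adjusted p = 0.00319), with 1666 to 2022 CPM at day 0 and 2160 to 2823 CPM at day 7, and without day 7 replicate 3 the call was lost (adjusted p = 0.052).

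Pcolce, the enhancer of procollagen cleavage, was at 2372, 2063, 1988 and 2274 CPM in tenocyte-like cells at day 0 and at 1203, 963, 1075 and 936 CPM at day 7, a fall of 0.91 ± 0.13 (adjusted p = 0.0001). Loxl3 was at 252, 267, 85.2 and 100 CPM at day 0, which is 2 high and 2 low libraries, and at 61.0 to 76.3 CPM at day 7. It fell by 1.28 ± 0.27 (adjusted p = 0.00252), and without day 0 replicate 2 it had a log2 fold change of -0.89 (adjusted p = 0.0548). When each group was clustered alone the log2 fold change was -0.11 (adjusted p = 0.86). Loxl2 fell by 0.61 ± 0.16 (adjusted p = 0.0107), a call lost without day 0 replicate 1, 3 or 4 (adjusted p 0.0726 to 0.0887), and its log2 fold change was -0.17 with all genes allowed as variable genes. Bmp1 was higher by 0.71 ± 0.23 (adjusted p = 0.034), which 6 of the 8 libraries, left out in turn, each ended.

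In all, 4 members were higher and 3 lower at day 7 against day 0 in tenocyte-like cells, where 22.9% of genes were called, 13.2% higher and 9.75% lower. At day 21 against day 0, 6 were higher and 3 lower, where 15.7% were called, 10.3% higher and 5.37% lower. That count was 3 and 3 with total UMI scaling, which moved the median of all genes from 0.12 to -0.14. Lox (1.26 ± 0.19, adjusted p = 0.000212) and Plod2 (1.40 ± 0.26, adjusted p = 0.00114) were still up at day 21, and Pcolce was still down (-0.73 ± 0.14, adjusted p = 0.00163). From day 7 to day 21, Plod1 rose by 0.68 ± 0.09 (adjusted p = 0.000224), with 119 to 141 CPM before and 187 to 222 CPM after. Serpinh1 fell by 0.73 ± 0.09 (adjusted p = 0.000133) and Plod2 by 0.47 ± 0.10 (adjusted p = 0.00393) in the same comparison. With the rise of Loxl1 (0.36 ± 0.11, adjusted p = 0.0261), which was lost without day 7 replicate 2 or 3 or day 21 replicate 2 or 3, this made 2 higher and 2 lower, where 31.9% of genes were called, 16.4% higher and 15.5% lower.

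The clusters of the tenocyte-like class also changed. The cluster led by Kera, Angptl7 and Chad held 96.2% of its cells at day 0, 5.03% at day 7 and 6.49% at day 21, and those led by C1qtnf3, Scx and Tnn and by Cilp2, Matn4 and Fmod held 88.2% at day 7 and 90.5% at day 21. Within the cluster led by Kera, in 3 libraries of day 0 and 4 of day 7, Lox rose by 1.59 ± 0.23 (adjusted p = 0.000459), Plod2 by 1.74 ± 0.33 (adjusted p = 0.0025) and Serpinh1 by 0.74 ± 0.19 (adjusted p = 0.0126). Loxl2 fell by 1.52 ± 0.19 there (adjusted p = 0.000227). Pcolce (-0.29 ± 0.18), Loxl3 (-0.59 ± 0.37) and Bmp1 (-0.04 ± 0.32) did not pass the test within it. At day 21 against day 0 within it, the log2 fold change was -0.08 ± 0.18 for Pcolce (adjusted p = 0.857) and 0.96 ± 0.27 for Lox (adjusted p = 0.117), and neither passed the test. Plod2 and Plod3 did not pass the filter on low counts in that comparison and have no value there. Between day 21 and day 7 in the same cluster, Lox fell by 0.62 ± 0.17 (adjusted p = 0.0273), whereas over the whole class it differed by 0.14 ± 0.10 (adjusted p = 0.302).

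Set against the stromal-like cells of the same libraries, tenocyte-like cells held more Plod2 and Plod1 in each of 4 groups. The log2 difference of Plod2 was 1.00 ± 0.33 at day 0 (adjusted p = 0.0334), 1.05 ± 0.10 at day 7 (adjusted p = 9.57e-05), 1.20 ± 0.08 at day 21 (adjusted p = 2e-06) and 1.17 ± 0.09 with p7N3 (adjusted p = 2.25e-06). That of Plod1 was 0.81 ± 0.23, 0.66 ± 0.09, 1.02 ± 0.08 and 0.79 ± 0.08. The day 0 calls of both were lost under several alternatives, and that of Plod2 without day 0 replicate 1, 2 or 3 (adjusted p 0.0641 to 0.267), with a difference of 0.27 when each group was clustered alone. Bmp1 was lower in tenocyte-like cells in the same 4 groups (-1.04 ± 0.23, -0.26 ± 0.08, -0.25 ± 0.07 and -0.39 ± 0.08), though at day 7 leaving out any of the 4 libraries ended the call (adjusted p 0.0518 to 0.174) and at day 21 leaving out replicate 1, 2 or 3 did. Lox was 1.60 ± 0.20 higher in tenocyte-like cells at day 0 (adjusted p = 3.54e-06) and differed by 0.10 ± 0.08 at day 7 (adjusted p = 0.375). In counts, 7 members were higher and 1 lower at day 0, where 23.0% of genes were called, 9.71% higher and 13.3% lower. At day 7, 3 were higher and 3 lower, where 25.2% of genes were called, 11.6% higher and 13.6% lower. At day 21, 6 were higher and 2 lower, where 37.4% were called, 18.4% higher. With p7N3, 5 were higher and 2 lower, where 27.9% were called, 12.7% higher and 15.1% lower. The day 0 count of 8 was 2 to 9 under other settings, 4 without replicate 1 and 5 without replicate 2, and the day 7 count of 6 was 3 without replicate 2 or 4.

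With p7N3, none of the 10 members passed the test against day 7 in either class. In stromal-like cells Lox was at 596, 677, 738 and 766 CPM, Plod2 at 124, 168, 183 and 161 CPM, and Serpinh1 at 2318, 2402, 1901 and 2208 CPM. Each of these ranges overlapped that of day 7. The differences were -0.02 for Lox (95% interval -0.25 to 0.21), 0.18 for Plod2 (95% interval -0.11 to 0.47) and -0.04 for Serpinh1 (95% interval -0.26 to 0.19). Plod3 had the smallest unadjusted p, 0.0289 in stromal-like cells (0.26 ± 0.10, adjusted p = 0.378) and 0.00953 in tenocyte-like cells (0.31 ± 0.10, adjusted p = 0.336). In stromal-like cells its p7N3 libraries, at 84.6 to 113 CPM, all lay above the 75.7 to 83.8 CPM of day 7. In tenocyte-like cells the Plod3 ranges overlapped. Plod2 in tenocyte-like cells was at 312, 385, 344 and 311 CPM, all above the 252 to 310 CPM of day 7, with a difference of 0.28 ± 0.10 (adjusted p = 0.388). The lowest p7N3 library, at 311.3 CPM, nearly met the highest of day 7, at 310.4 CPM. How many of all genes had no overlap between p7N3 and day 7 is not given, so these separations are only a description.

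By edgeR, 0 of 13303 genes were called for p7N3 in stromal-like cells (0%), with 1544 at an unadjusted p under 0.05 and 100 called by DESeq2, 0 of them members. In tenocyte-like cells 6 of 10051 were called (0.0597%), with 1040 at an unadjusted p under 0.05 and 20 by DESeq2, again with 0 members. The difference of the p7N3 effect between the classes was called for 0 members and for 0.0151% of 13215 genes, 0.00757% higher and 0.00757% lower, with 730 genes and 0 members at an unadjusted p under 0.05 and 9 genes called by DESeq2. The Plod2 share of its family in stromal-like cells was 47.8% ± 3.98 with p7N3 against 45.7% ± 3.01 at day 7 (exact permutation p = 0.457, n = 4 each). The Lox share was 45.0% ± 5.08 against 45.1% ± 1.52 (exact permutation p = 0.971, n = 4 each).

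The other genes of hydroxylation, folding and export were counted in stromal-like cells against day 0. At day 3, 12 of 18 tested were higher and 1 lower, where 33.3% of all genes were higher and 32.9% lower. At day 7, 11 of 19 were higher and 1 lower, where 27.7% of all genes were higher and 25.8% lower. At day 21, 12 of 18 were higher and 3 lower, where 17.2% of all genes were higher and 17.0% lower. P4ha3, a catalytic subunit of prolyl 4-hydroxylase, was higher by 2.92 ± 0.17, 3.16 ± 0.15 and 2.72 ± 0.20 at these times. Fkbp10, a collagen chaperone whose product acts with PLOD2, was higher by 1.95 ± 0.12 at day 3 and 1.93 ± 0.13 at day 7, and fell by 0.92 ± 0.13 from day 7 to day 21. Colgalt2, a collagen galactosyltransferase, was lower, with log2 fold changes of -3.29 ± 0.53, -2.36 ± 0.25 and -1.76 ± 0.36.

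Pcolce2, the second enhancer of the C-proteinase, was lower than at day 0 with Pcolce. Its mean was 749 ± 69.6 CPM at day 0 and 64.7 ± 10.1 CPM at day 3, with log2 fold changes of -3.44 ± 0.13, -4.14 ± 0.15 and -2.76 ± 0.27 at days 3, 7 and 21. Pcolce2 was among the leading genes of the cluster led by Myoc. That cluster held 90.0% of stromal-like cells at day 0, 0.491% at day 3, 2.89% at day 7 and 18.8% at day 21. Its part in these values was not tested, and no within-cluster value is given for genes outside the members. Of the procollagen cleavage genes outside the members, 0 of 3 tested were higher and 2 lower at day 3 (33.3% and 32.9% of all genes), and 2 of 5 higher and 2 lower at day 7 (27.7% and 25.8% of all genes). Of the fibrillar collagens, 2 of 8 tested were higher and 4 lower at day 3 (median -0.17), beside the same 33.3% and 32.9% of all genes. At day 7, 7 of 10 were higher and 0 lower (median 0.86), beside 27.7% and 25.8% of all genes. At day 21, 8 of 9 were higher and 1 lower (median 0.88), beside 17.2% and 17.0% of all genes. Col11a1 was higher by 1.71 ± 0.20 at day 3 and 4.53 ± 0.19 at day 7, and Col1a1 by 1.18 ± 0.10 at day 21. Among the 5 genes of crosslinking and its helpers, 2 were higher and 2 lower at day 3 (33.3% and 32.9% of all genes), and Fbln5, an elastic fibre protein, was lower (-1.59 ± 0.17). With p7N3, 0 of 19, 0 of 5, 0 of 5 and 0 of 11 tested genes of the 4 lists passed in stromal-like cells by edgeR, with 3, 0, 2 and 2 at an unadjusted p under 0.05. The medians of all genes tested in the first 3 comparisons lay between -0.02 and 0.02.

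In tenocyte-like cells, the folding list had 9 of 17 genes higher and 1 lower at day 7 against day 0, beside 13.2% and 9.75% of all genes. At day 21 it had 7 of 18 higher and 2 lower, beside 10.3% and 5.37% of all genes. The gene that fell at both times was P4ha1, another prolyl 4-hydroxylase subunit, by 1.33 ± 0.17 and 1.15 ± 0.16. Col5a1, which sets fibril diameter, rose by 2.72 ± 0.15 and 2.62 ± 0.17, and Col11a2 fell by 3.44 ± 0.47 and 2.22 ± 0.28. P3h4, which acts with PLOD1 on helical lysines, was higher in tenocyte-like than in stromal-like cells by 0.94 ± 0.09 at day 7, 1.40 ± 0.07 at day 21 and 1.06 ± 0.07 with p7N3.

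**Figure D5:**
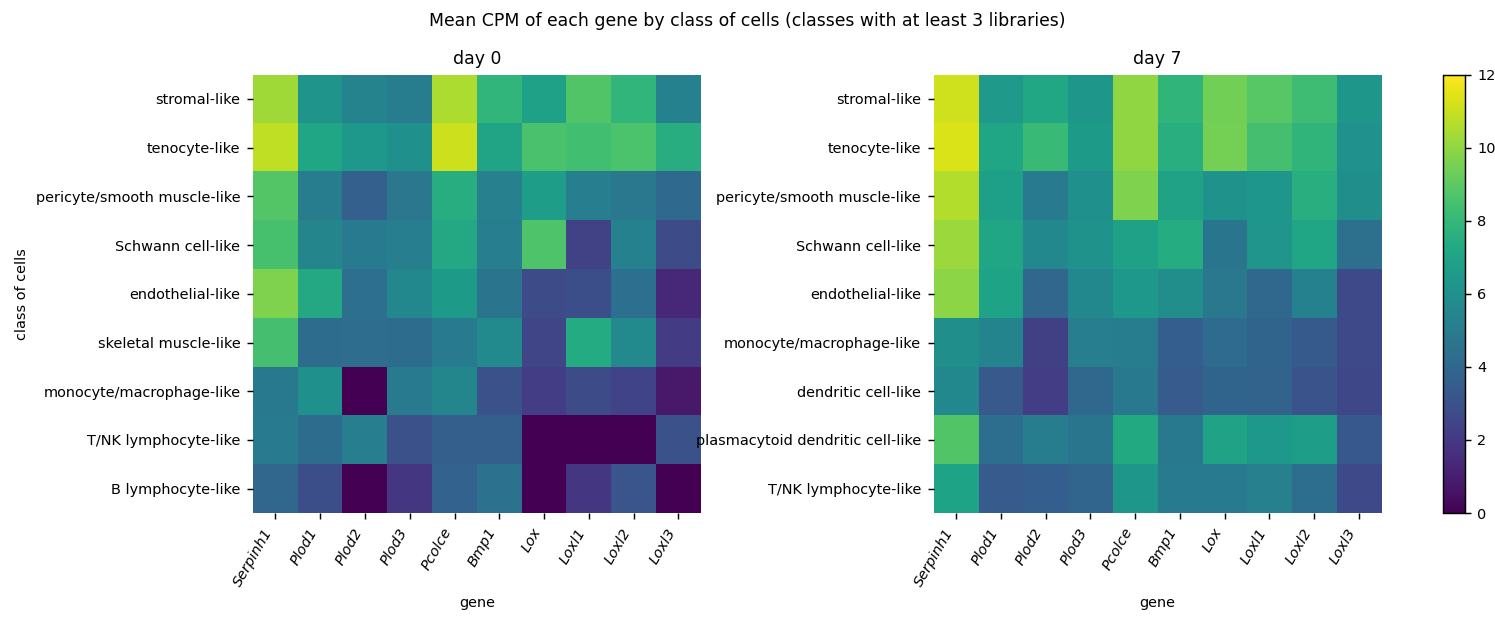
Mean CPM of each gene as log2(mean CPM + 1), by colour, in each class of cells (rows) that had at least 10 cells in at least 3 libraries, at day 0 (left) and day 7 (right). Stromal-like and tenocyte-like cells hold the highest levels of most genes, and pericyte/smooth muscle-like cells hold more Serpinh1 at day 7 (1594 CPM) than at day 0 (443 CPM).

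The classes differed in which member they held. At day 0, Lox was highest in Schwann cell-like cells at 412 ± 74.6 CPM (SD, n = 4) and tenocyte-like cells at 376 ± 131 CPM, whose ranges overlapped, and was next in stromal-like cells at 118 ± 31.9 CPM. At day 7 Schwann cell-like cells were at 24.1 ± 11.4 CPM, while tenocyte-like and stromal-like cells were at 726 ± 67.5 and 707 ± 74.5 CPM with overlapping ranges. Plod1 was highest in endothelial-like cells at day 0, at 150 ± 20.5 CPM, overlapping tenocyte-like cells at 135 ± 22.2 CPM. Chondrocyte-like cells had at least 10 cells per library only at day 21, where they held the most Plod2, at 400 ± 126 CPM, ahead of tenocyte-like cells at 191 ± 14.3 and stromal-like cells at 87.7 ± 14.5 CPM, with no overlap between neighbours. They also held the most Loxl3 at day 21 (124 ± 38.2 CPM). These orders of levels were not tested.

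The genes whose course was most like that of each member were sought among 7916 genes by Pearson's r of log2(CPM + 1) over the 19 stromal-like sums, as a description. Nearest to Lox were the mitotic genes Racgap1 (0.985), Ccnb2 (0.981) and Birc5 (0.980). With the cycling cluster left out, Lox still passed the threshold at days 3, 7 and 21 against day 0. That cluster held 0% of stromal-like cells at day 0, 2.21% at day 3, 13.6% at day 7 and 4.87% at day 21. Leaving it out thus removed few cells at days 3 and 21. Cells with the cycling gene Mki67 remained, at 4.29% of thinned cells in the cluster led by Prg4. The part of cycling cells in the Lox values was not tested. Nearest to Serpinh1 were Ostc (0.976), Rcn1 (0.974) and Trappc4 (0.972), to Plod2 Ssr2 (0.980), Cmpk1 (0.978) and Cd63 (0.973), and to Plod3 Steap1 (0.983), Ckap4 (0.973) and Fads3 (0.971). Nearest to Loxl3 were Arpc2 (0.968), Ppp1ca (0.966) and Prkcsh (0.961), and to Pcolce Lrpap1 (0.946), Gm12216 (0.940) and Carkd (0.933). Loxl1, Loxl2, Plod1 and Bmp1 had no gene above 0.87. Of the members, Plod3 was the closest to Plod2 (0.923) and to Lox (0.916), and Serpinh1 the closest to Loxl3 (0.922). The 19 sums share their 5 groups, so these values mostly describe the courses over the groups.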

How the data were processed

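Cells of the tenotomy site were sequenced as 19 droplet libraries (10x 3′). The authors counted reads with Cell Ranger against mm10 and deposited raw UMI counts per gene and barcode, not normalized. The submitters' processing notes name GRCh38 for some samples, and the gene symbols and Ensembl identifiers in the files are those of mouse. One day 0 library was deposited as an unfiltered matrix, to which the same limits on cells were applied. A cell was kept if it had 500 genes or more and no more than 25% of its UMIs mitochondrial, and all kept cells were clustered together (scanpy 1.11.5, leidenalg 0.10.2, 2000 variable genes, 30 principal components, 20 neighbours, resolution 0.8), without the members or their pathway genes among the variable genes. Marker lists gave the clusters their names, so the names are rebuilt and not those of the study. A cluster with Krt19 or Cldn1 among its leading genes was left unnamed. A cluster that passed both the tenocyte and the chondrocyte list was named tenocyte-like, unless it held a larger share of the chondrocyte list. No doublets were removed. No 2 libraries shared more barcodes than 1.26% of the smaller one.

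UMIs were summed per library and class where at least 10 cells were present, and compared by edgeR 4.0.16 (quasi-likelihood, TMM factors, filterByExpr) in R 4.3.3, with the library as a block between classes. DESeq2 1.42.0 was an alternative. The study's test treated single cells as replicates and was not used. Family shares were compared by exact permutation over libraries, adjusted over 6 tests. On simulated data with 200 genes changed 2-fold, 74.5% to 92% were recovered in stromal-like comparisons, and 34% and 27.5% in the tenocyte-like comparisons of day 7 and day 21 with day 0. Whether same-numbered replicates pair was checked by the correlation of their deviations, which was not over 0.1 for every number in any comparison, so the replicate block stayed an alternative. The other alternatives were RLE factors, other filters on counts, cells and doublets, other clustering, a single fit of all groups, and each library left out. Total UMI scaling, cells without Ptprc, the cycling cluster left out and single clusters were added after the data had been seen.

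All 10 members are named. Of 4 fixed pathway lists, up to 3 genes a direction were eligible by size of log2 fold change, with no overlap between groups and a mean of at least 10 CPM. The members and lists were chosen with earlier results of these data known. Positions of genes were read from GENCODE vM21 (GRCm38) and promoters from RefSeq. Member promoters on chromosome 18, where Lox lies, were not looked up. No sequence is shown for Pcolce or for members whose promoter was not read. Day 0 counts are the least precise, and intervals cover the spread between libraries.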

Additional observations from a re-analysis of the deposited data

Results flagged for a closer look

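Among 88 groups of 4 libraries, 5 held a value that stood apart from the other 3, and chance gives about 1 in 20 such groups. Plod1 in stromal-like cells was at 87.2 CPM in 1 day 21 library and at 108 to 110 CPM in the others. Pcolce in stromal-like cells was at 1208 CPM in 1 day 7 library and at 941 to 975 CPM in the others. Lox in tenocyte-like cells was at 744 CPM in 1 p7N3 library and at 819 to 832 CPM in the others. Plod1 in tenocyte-like cells was at 168 CPM in 1 day 0 library and at 123 to 125 CPM in the others. Plod3 in tenocyte-like cells was at 105 CPM in 1 day 7 library and at 86.3 to 89.1 CPM in the others.

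A pair of lysyl oxidases moved in opposite directions in the classes at day 7 against day 0. Loxl2 had a log2 fold change of 0.39 in stromal-like and -0.61 in tenocyte-like cells, and Loxl3 of 1.15 and -1.28. In each case the day 7 range lay above that of day 0 in stromal-like cells and below it in tenocyte-like cells, without overlap. The difference between the classes was itself not tested. How many of all genes had such opposite ranges is not given, so this is only a description. In stromal-like cells of the cluster led by Myoc, Loxl3 had a log2 fold change of -0.15 (edgeR adjusted p = 0.784). That of Loxl2 there was 0.13 (edgeR adjusted p = 0.69). The tenocyte-like value of Loxl3 was -0.11 with each group clustered alone (edgeR adjusted p = 0.86) and -0.59 within the cluster led by Kera (edgeR adjusted p = 0.278), and that of Loxl2 was -0.17 with all genes allowed as variable genes (edgeR adjusted p = 0.67).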

How the results depend on the processing

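Of 82 member changes past the threshold, refitted 2072 times, 1819 refits kept the call, 241 lost it and 12 reversed the sign, and of 68 changes short of it, 61 of 1780 refits passed. Leaving out a library reversed none of 527 refits and ended 71. Left-out libraries moved the number of members past the threshold between 7 and 8 for stromal-like day 3 against day 0, 7 and 8 for day 7 against day 0, 5 and 6 for day 21 against day 0, 2 (without day 3 replicate 1) and 7 for day 7 against day 3, 6 and 8 for day 21 against day 7, and 0 and 0 for p7N3. For tenocyte-like cells the ranges were 5 to 6 (day 7 against day 0), 7 to 9 (day 21 against day 0), 3 to 4 (day 21 against day 7) and 0 to 0 (p7N3), and between the classes 4 to 7 (day 0), 3 to 4 (day 7), 7 to 8 (day 21), 5 to 8 (p7N3) and 0 to 0 (the difference of the p7N3 effects). Differences of shares ranged over 17.1 to 19.5 and 6.91 to 9.09 percentage points for Plod2 at day 7 and day 21, 30.2 to 32.4 and 23.6 to 26.2 for Lox, and with p7N3 over 0.23 to 3.51 for Plod2 and -1.62 to 2.34 for Lox.

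Restriction to the cluster led by Myoc left 2 members past the threshold at day 7 and 2 at day 21 against day 0 and 0 between day 21 and day 7. These fits tested 6174, 7676 and 4482 genes. For the counts under other settings in this section, the share of all genes called is not given. Such counts therefore do not separate lost member changes from fewer calls in all. The restriction gave log2 fold changes of -0.15 for Loxl3 and 0.84 for Bmp1 (day 7 against day 0), 0.42 for Bmp1 (day 21 against day 0), and -0.0913 for Loxl1, 0.21 for Loxl3, 0.0347 for Plod2 and 0.11 for Plod3 (day 21 against day 7). The cluster led by Sfrp4 alone gave 2 members and 0.0568 for Lox between day 21 and day 7, and adding tenocyte-like and chondrocyte-like cells gave 4. The cluster led by Kera alone gave 4 members at day 7 and 0 at day 21 against day 0, with -0.0355 and -0.0543 for Bmp1, and -0.62 for Lox between day 21 and day 7. At day 21 against day 0, Plod2 and Plod3 were not among the 1546 genes tested in that cluster. Between day 7 and day 3, 3 members passed with the replicate block and 3 without Ptprc cells.

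In tenocyte-like cells 4 members passed at day 7 with at least 10 UMIs in every library, and at day 21 against day 0, 3 passed without the top Scrublet scores (a doublet score) and 5 with each group clustered alone, which also gave -0.11 for Plod1 in stromal-like cells between day 21 and day 7. Between the classes at day 0, 4 passed with no filter, 2 with all genes as variable genes, 5 at no more than 10% mitochondrial UMIs, 2 with 1000 genes or more, 2 without the top Scrublet scores, 3 with each group clustered alone and 5 without Ptprc cells. At day 7, 3 passed with no library block, 3 with replicates 1 to 3 only, 3 at resolution 2, 3 at no more than 10% mitochondrial UMIs and 3 without the top Scrublet scores, and Loxl1 was at 0.0151, 0.0264 and 0.00783 in the last 3. The difference of the p7N3 effects had 1 member with each group clustered alone.

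Differences of the family shares from day 0 moved as well. That of Plod2 at day 7 was 17.5 percentage points with each group clustered alone, -0.24 in the cluster led by Myoc, 17.3 with replicates 1 to 3 and 18.4 with the replicate block, and at day 21 5.16, -1.32, 5.79 and 8.04. For Lox these were 30.0, 1.08, 29.9 and 30.9 at day 7, and 11.4, -2.64, 22.9 and 24.7 at day 21. The smallest p is 0.1 for 3 against 3 libraries and 0.125 for 4 pairs. The Lox share with p7N3 differed from day 7 by 0.54 with each group clustered alone, 0.32 without the cycling cluster, 5.88 in the cluster led by Myoc and 1.09 in that led by Sfrp4. Replicate numbers were not shown to pair the libraries, and the replicate block kept 50 of 53 calls. At least 30 cells per sum gave no value for tenocyte-like cells of day 0. The causes of these shifts were not tested. The few day 0 tenocyte-like cells limit what could be detected there.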

Other observations

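Pericyte/smooth muscle-like cells, which entered no comparison, held Serpinh1 at 443 ± 46.4 CPM at day 0, 1555 ± 290 CPM at day 3, 1594 ± 219 CPM at day 7 and 830 ± 65.5 CPM at day 21 (SD, n = 4 libraries, 3 at day 3). Schwann cell-like cells held Lox at 41.2 ± 20.3 CPM at day 21, beside 412 ± 74.6 CPM at day 0. These values were not tested.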
